A study of Caenorhabditis elegans with 2 samples.

Results

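The proteasome subunit genes of Caenorhabditis elegans were examined for binding of NHR-48, a nuclear hormone receptor. They were taken as the protein-coding genes with the symbol stems pas, pbs, rpt and rpn in the Ensembl annotation of the WBcel235 assembly (ce11), which gave 33 of 19973 nuclear protein-coding genes. Of these, 14 encode the core particle (7 pas and 7 pbs genes) and 19 the regulatory particle (6 rpt and 13 rpn genes). Binding was measured by chromatin immunoprecipitation with sequencing (ChIP-seq) in whole hermaphrodites of strain OP518, which carries the unc-119(tm4063) allele on chromosome III and the integrated transgene wgIs518. That transgene expresses NHR-48 joined at the C terminus to a GFP-FLAG tag, which was precipitated with an antibody against GFP. L4 larvae, the last larval stage, were collected 48.5 h after arrest as starved L1 larvae was released, and 2 biological replicates form the single group. The promoter that drives the tagged protein is not named in the labels, and binding in whole animals cannot be assigned to a tissue.

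Proteasomes degrade proteins that carry ubiquitin chains. The core particle is a barrel made of outer alpha rings, encoded by the pas genes, and inner beta rings, encoded by the pbs genes, some of which hold the proteolytic sites. The regulatory particle caps the barrel: the rpt genes encode a ring of ATPases that unfolds the substrate, and the rpn genes encode scaffolds, ubiquitin receptors and the lid with its deubiquitinase. In worms the transcription factor SKN-1 raises the expression of proteasome genes when proteasome activity falls.

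The lists analysed were those of the authors. The pooled list held 30000 regions called on both replicates together, the list of replicate 1 held 26941 and that of replicate 2 held 22704. These 3 lists hold peaks together with background. The list that passed the irreproducible discovery rate procedure (IDR), which compares ranks between replicates, held 3361 peaks. Every region has a signal value on the caller's scale, which ranks regions within 1 list only, and a summit. No read counts come with the regions, so the depth behind each value is unknown. A gene was counted when a summit lay from 1000 bp upstream to 200 bp downstream of one of its annotated 5′ ends.

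NHR-48 peaks of the IDR list lay at the promoters of 6 of 33 proteasome genes (18.2%, exact 95% Clopper-Pearson interval 6.98 to 35.5), against 9.0% of all protein-coding genes. The interval includes that share. These genes were rpn-3, rpn-11, rpn-2 and rpn-6.1 of the regulatory particle and pas-5 and pbs-1 of the core particle. In the pooled list 21 of 33 genes had a summit (63.6%, interval 45.1 to 79.6), against 39.5% of all genes, and here the interval lies above that share. Its lower end is below the 46.0% found for all genes with a divergent neighbour, a layout that 21 of the 33 have. Such a neighbour is a protein-coding gene on the other strand that starts within 1000 bp upstream. Giving each summit only to the gene with the nearest 5′ end lowered the share to 48.5%, against 35.2% of all genes. The genes were not drawn at random and some share regions with neighbours, so the intervals describe counting error only, and no enrichment test was run.

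The regulatory particle had somewhat higher shares than the core particle in both lists, but the intervals overlapped widely and the order in the pooled list depended on how summits were assigned. IDR summits were present at 4 of 19 regulatory genes (21.1%, exact interval 6.05 to 45.6) and at 2 of 14 core genes (14.3%, interval 1.78 to 42.8). The share of all genes, 9.0%, lies within both intervals. With the top-ranked regions of replicate 1 alone, without replicate 2, only 1 core gene was left, pas-5 (7.14%, against 8.70% of all genes). In the pooled list the counts were 13 of 19 (68.4%, interval 43.4 to 87.4) and 8 of 14 (57.1%, interval 28.9 to 82.3). The share of all genes, 39.5%, lies below the regulatory interval and within the core interval. With each summit given only to the gene with the nearest 5′ end, the order in the pooled list turned, with 9 of 19 regulatory genes (47.4%) and 7 of 14 core genes. Of all genes 35.2% had a pooled summit under that assignment. With a window from 2000 bp upstream to 500 bp downstream the pooled shares were almost equal, 78.9% and 78.6%, against 50.5% of all genes. Within the regulatory particle the IDR summits were at rpn genes, 4 of 13 (30.8%), with 0 of 6 at the rpt ATPase genes, a count that allows a share of up to 45.9%. Pooled summits were present at 4 of 6 rpt genes (66.7%) and 9 of 13 rpn genes (69.2%), against 39.5% of all genes. They were at 5 of 7 pbs genes (71.4%) and 3 of 7 pas genes (42.9%), the latter near the share of all genes. The differences between particles and between families were not tested.

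**Figure D1:**
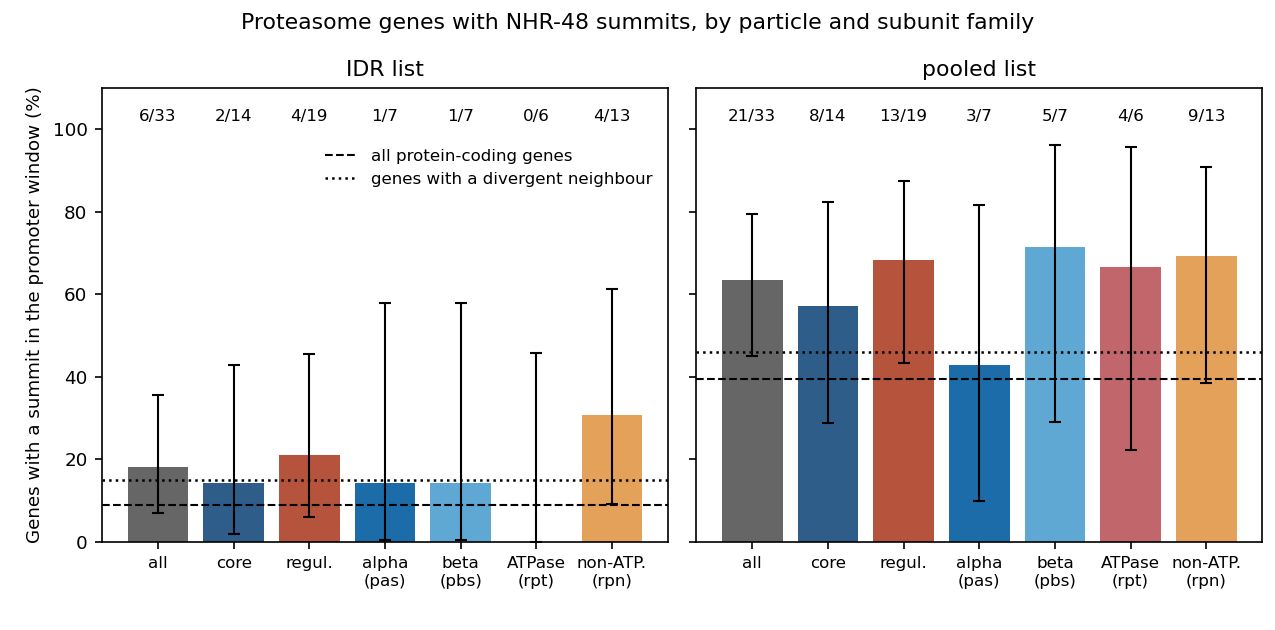
Share of genes with a summit in the promoter window (vertical axis, %) for all 33 proteasome genes, for the particles and for the subunit families, in the IDR list (left) and the pooled list (right). Bars are shares, whiskers exact 95% intervals, and the numbers above give genes with a summit and genes in all. The dashed line marks all protein-coding genes (9.0% and 39.5%) and the dotted line genes with a divergent neighbour (15.1% and 46.0%); in the IDR list most whiskers span both lines.

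The strongest peak at a proteasome gene lay in front of rpn-3, which encodes a lid subunit (chrIII:8447067-8447260). Its signal was 229.8 in the pooled list, 129 in replicate 1 and 104 in replicate 2, at ranks 878, 993 and 808 of these lists, and the summit lay 192 bp upstream of the 5′ end. The region is narrow, 194 bp against the 476 bp that 28 of 29 member regions span. It is shared with hsp-110, a chaperone gene on the other strand whose 5′ end lies 444 bp away. The peak of rpn-11, which encodes the deubiquitinase of the lid, had a signal of 189 in the pooled list, 105 in replicate 1 and 81.0 in replicate 2 (chrII:4044322-4044797). Its summit lay 14 bp upstream of the 5′ end, the closest of the 6. Both peaks ranked well inside all 3 lists, and no other 5′ end of a protein-coding gene had the rpn-11 summit in its window.

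The peaks of pbs-1, rpn-6.1 and rpn-2 were close to the lower limit of the IDR list, whose weakest peak had a signal of 95.4. The peak of pbs-1, a beta ring gene whose product corresponds to the caspase-like subunit of yeast and mammals, had a signal of 100.3 in the pooled list, 56.8 in replicate 1 and 45.1 in replicate 2 (chrIV:1709694-1710169). That of rpn-6.1, which encodes a lid subunit known in worms for raising proteasome activity when overexpressed, had 99.1, 74.9 and 34.9 in the same order (chrIII:6962065-6962540). Its summit lay 302 bp from rpn-6.1 but 37 bp from the 5′ end of F57B9.1, in an intron of that gene. The peak of rpn-2, which encodes a large scaffold subunit, had 96.0, 45.6 and 54.4 (chrIII:6198600-6199075). Replicate 1 ranked the rpn-6.1 region higher (2298) than replicate 2 did (4739), and the reverse held for rpn-2 (4622 and 2422). None of these 3 was among the 3361 top-ranked regions of both replicates.

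The sequences under the summits of rpn-3, rpn-11, rpn-2, rpn-6.1 and pbs-1 are shown because they are the stretches where NHR-48-GFP signal peaked at proteasome promoters. Each covers up to 100 bp centred on the summit, is read from the RefSeq genome of WBcel235 (ce11) on the strand of the gene, and leaves out annotated UTR bases, which shortened those of rpn-11 and rpn-6.1. Capitals mark matches to any of the 8 motifs searched, here TGTCAT (printed as its reverse complement) and an overlapping pair of TGATAA and the reverse complement of TATCAT.
rpn-3, chrIII:8447111-8447210, plus strand: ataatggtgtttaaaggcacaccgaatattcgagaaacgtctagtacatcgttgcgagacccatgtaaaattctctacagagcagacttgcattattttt
rpn-11, chrII:4044547-4044609, minus strand: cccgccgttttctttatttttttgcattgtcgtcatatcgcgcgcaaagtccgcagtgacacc
rpn-2, chrIII:6198788-6198887, plus strand: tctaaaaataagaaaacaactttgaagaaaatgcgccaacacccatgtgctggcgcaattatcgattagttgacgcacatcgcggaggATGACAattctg
rpn-6.1, chrIII:6962253-6962339, minus strand: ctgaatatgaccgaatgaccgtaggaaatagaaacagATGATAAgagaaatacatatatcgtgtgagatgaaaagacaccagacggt
pbs-1, chrIV:1709882-1709981, minus strand: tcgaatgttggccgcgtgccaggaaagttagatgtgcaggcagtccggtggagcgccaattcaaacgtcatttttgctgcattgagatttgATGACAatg
The rpn-3 summit held no match. The TGTCAT counted for rpn-11 lies in the omitted part of its window, downstream of the 5′ end.

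TGTCAT and TATCAT, which form the core of the SKN-1 recognition site, were searched on both strands. The other motifs searched were GAGAGA, the E-box CACGTG, the GATA-type TGATAA and the nuclear receptor sequence AGGTCA with its variants AGTTCA and, in addition, AGTGCA. The letters of TATCAT and TGATAA can share 5 bases when they lie on opposite strands. TGTCAT occurred in the 100 bp windows of 3 of 6 member summits in the IDR list, those of rpn-2, rpn-11 and pbs-1, against 104 of 1639 promoter summits of that list (6.35%). With TATCAT, found at rpn-6.1, the count was 4 of 6 against 14.5%. Over all 29 pooled summits of the members the pair occurred in 7 (24.1% against 12.7%), and in windows of 200 bp in 8 (27.6% against 23.2%). In the 300 bp upstream of the 5′ end it occurred at 13 of 33 genes (39.4%, against 31.2% of all genes). For TGTCAT alone that upstream count was 10 of 33 (30.3% against 14.7%), with 6 among the 21 genes that had a pooled summit and 4 among the 12 that had none. TATCAT alone was less frequent upstream of proteasome genes, at 4 of 33 (12.1% against 19.5%). A match in sequence does not show that a factor binds there.

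Other motifs were seen at few or none of the proteasome summits. GAGAGA was in 0 of 29 windows of 100 bp, against 11.9% of all pooled promoter summits, and CACGTG in 0 of 29, against 3.27%. In windows of 200 bp GAGAGA was found in 1 of 29 (3.45%, against 20.7% of all pooled promoter summits). At that width CACGTG was also in 1 (3.45% against 5.50%), AGGTCA in 1 (3.45% against 5.19%) and AGTGCA in 2 (6.90% against 8.05%). In the 300 bp upstream of the 5′ ends GAGAGA was as frequent as elsewhere, 7 of 33 genes (21.2% against 21.6%). TGATAA was in 2 of 29 windows (6.90% against 13.7%). Of the sequences bound by nuclear receptors, AGTTCA was in 1 window of 100 bp, against 5.80% of all pooled promoter summits. That window is the one of rpn-6.1, where the match lies in bases left out of the printed sequence. AGGTCA and AGTGCA were in 0 of 29, against 2.72% and 4.12%. In the 300 bp upstream, AGTTCA was at 2 of 33 genes (6.06% against 20.4%). There AGGTCA was at 2 (6.06% against 8.45%) and AGTGCA at 1 (3.03% against 9.62%). With 29 windows such counts are small, and they were not tested.

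Of the core particle, pas-5 had the strongest peak, with a signal of 204 in the pooled list, 122 in replicate 1 and 88.9 in replicate 2. Its summit lay 913 bp upstream of the alpha ring gene, the farthest of the 6, inside the snoRNA gene F25H2.15 (chrI:10565199-10565674). The window that ran 500 bp upstream and 100 bp downstream no longer held it. The nearest protein-coding 5′ end was still that of pas-5. Peaks at snoRNA exons and at the promoter of the next gene cannot be told apart here. The 6 peaks lay 26312 bp or more from the nearest tRNA gene.

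**Figure D2:**
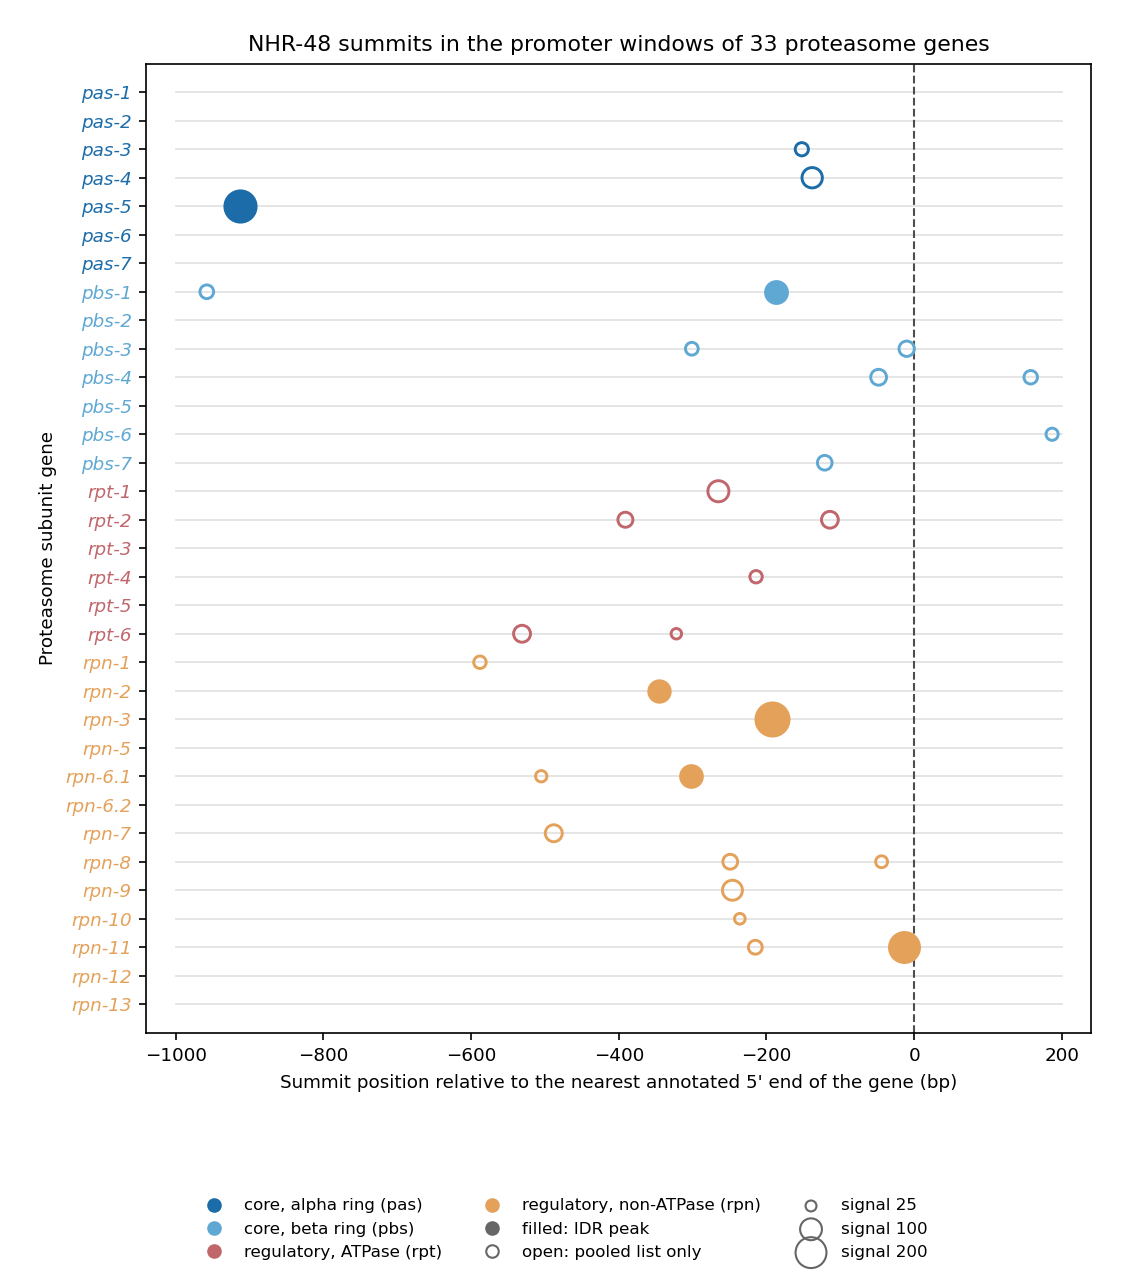
Position of every pooled summit in the promoter windows of the 33 proteasome genes (horizontal axis, bp from the nearest 5′ end, negative upstream; 1 row per gene). Circle area follows the pooled signal, filled circles are IDR peaks and open circles regions of the pooled list only. The pas-5 and pbs-1 rows hold the summits farthest upstream, and 12 rows are empty.

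Another 15 proteasome genes had a summit in the pooled list only, with signals from 24.0 to 92.9. Just below the IDR limit were rpt-1, an ATPase gene, with a signal of 92.9 in the pooled list, 52.1 in replicate 1 and 42.2 in replicate 2, the alpha ring gene pas-4 with 86.7, 55.1 and 34.0, and the lid gene rpn-9 with 83.5, 49.8 and 33.4. These differ little from the weakest IDR peak of the members, that of rpn-2 at 96.0. They ranked between 3476 and 4008 in the pooled list. The lid gene rpn-7 followed at 60.3, then rpt-6 at 60.0, rpt-2 at 59.0, pbs-4 at 52.4, pbs-3 at 49.3, rpn-8 at 45.9 and pbs-7 at 45.1. Below these lay pas-3, rpn-1, rpt-4, pbs-6 and rpn-10, from 36.6 down to 24.0 in the pooled list.

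Among the pooled-only members, rpt-2 alone had a TGTCAT match at a summit. Its sequence, read in the same way with the match in capitals, is shown for that reason.
rpt-2, chrV:6017733-6017832, minus strand: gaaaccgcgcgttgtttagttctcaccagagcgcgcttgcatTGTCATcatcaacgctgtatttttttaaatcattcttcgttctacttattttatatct
The summit lay 114 bp upstream of rpt-2, within the noncoding gene F29G9.10, and replicate 2 had no region there.

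Not every pooled region was seen in both replicates. The strongest pooled region was matched in both replicate lists for 16 of 21 genes (76.2%), where the share over all genes with a pooled summit was 64.9%. Replicate 2 had no region at rpt-2 and pas-3, and replicate 1 none at rpn-1, rpt-4 and pbs-6, all with pooled signals of 59.0 or lower. At rpn-10 the overlapping region of replicate 1 had its summit 401 bp from the pooled one. Counted by their own summits, 20 of 33 genes had one in replicate 1 (60.6%, against 37.6% of all genes) and 21 of 33 in replicate 2 (63.6%, against 33.8%). The 6 IDR peaks had a region in both replicates, with summits within 100 bp of each other's pooled position.

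**Figure D3:**
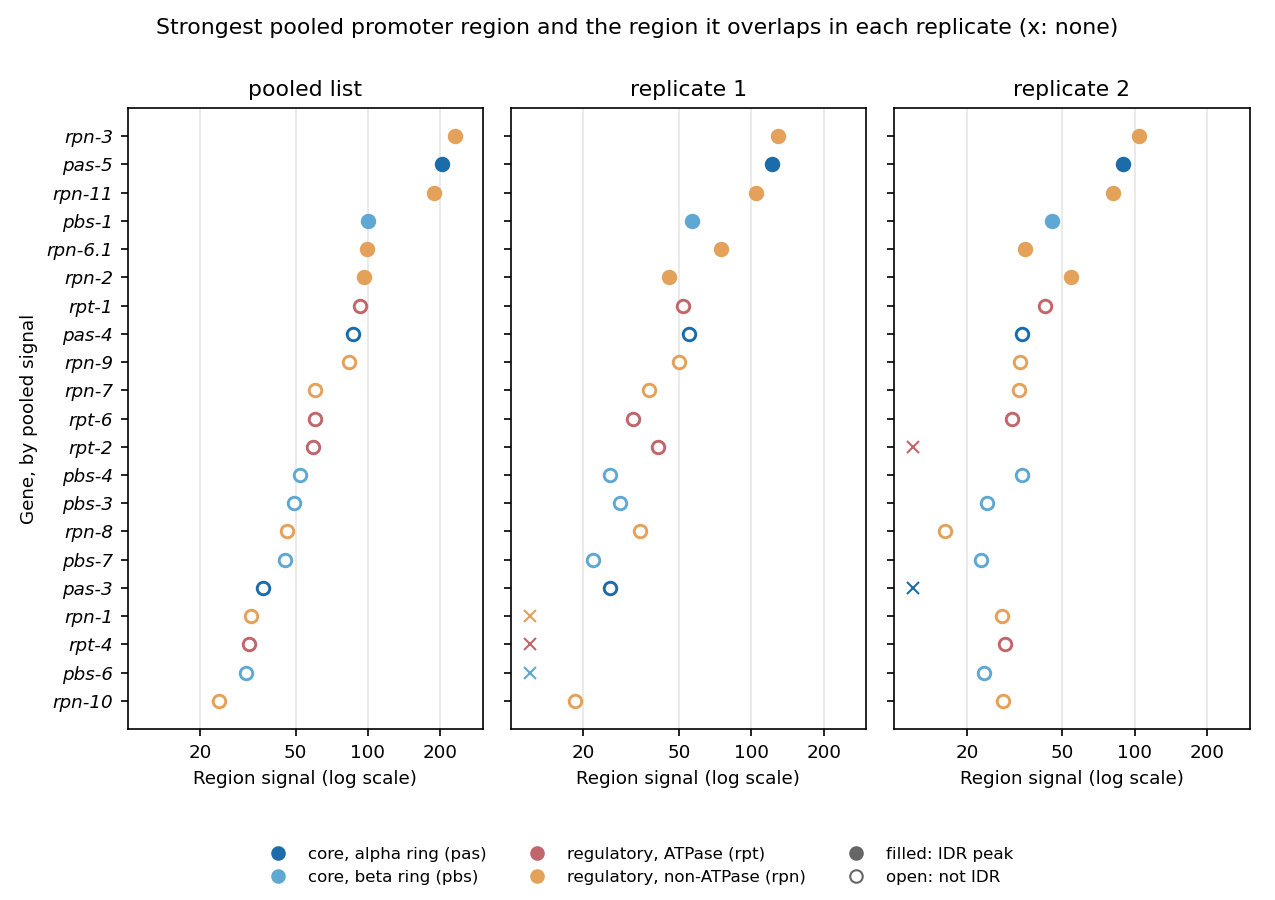
Signal (horizontal axes, log scale, authors' units) of the strongest pooled promoter region of the 21 genes that have one, and of the region it overlaps in replicate 1 and in replicate 2; genes are ordered by pooled signal. Crosses mark genes without an overlapping region. rpn-3, pas-5 and rpn-11 are highest in all 3 panels, while rpn-6.1, rpn-2 and weaker genes change places.

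The median signal of the strongest promoter summit was 60.0 over the 21 genes (range 24.0 to 229.8), 60.3 over the 13 regulatory genes and 50.9 over the 8 core genes. Over the 7886 protein-coding genes with a pooled summit it was 48.0. The strongest summits of proteasome genes were all far below the highest signal at any promoter, 2955. The median offset of the summit was -214 bp for the proteasome genes and -250 bp for all genes, where negative is upstream. Each set was measured from the nearest 5′ end of the gene. The summit was upstream in 20 of 21, and in 6684 of 7886 over all genes. The window itself reaches farther upstream than downstream. The exception among the proteasome genes was pbs-6, where the summit lay 187 bp downstream in a coding exon. At rpt-4 the summit was upstream only of an internal 5′ end and lay in an intron of rpt-4 itself. It was not counted when only the most upstream 5′ end of each gene was used. Of the 21 strongest summits 13 were intergenic and 3 lay in exons of noncoding genes. These classes were not counted over all genes.

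When the pooled list was shortened by signal, the proteasome share stayed above that of all genes at each of the lengths tried. Among the 5000 regions of highest signal 9 of 33 genes had a summit (27.3%, against 12.4% of all genes), and among 10000 there were 15 (45.5%, against 20.7%). The regulatory particle had 6 of 19 and 10 of 19 at these lengths, and the core particle 3 of 14 and 5 of 14. At 15000 regions the particles came close, with 10 of 19 and 7 of 14 genes, against 26.7% of all genes. These lengths were chosen after the ranks were seen.

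**Figure D4:**
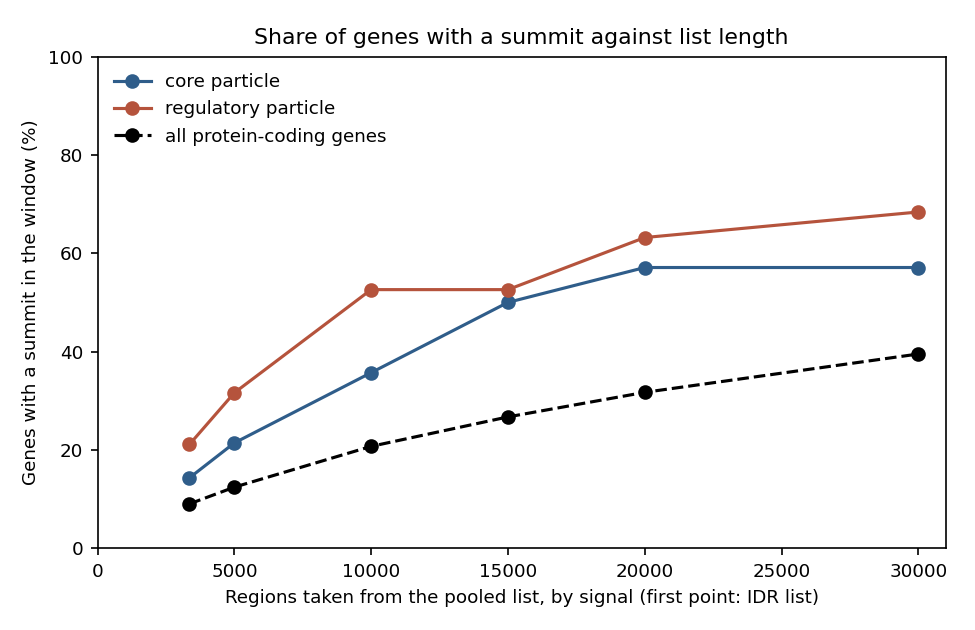
Share of genes with a summit in the promoter window (vertical axis, %) against the number of regions taken from the pooled list by signal (horizontal axis; the first point is the IDR list). Points are the core particle, the regulatory particle and all protein-coding genes. Both particles lie above all genes at every point, and the regulatory particle lies above the core particle.

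Proteasome genes often face a neighbour across a short shared promoter, and NHR-48 summits are more frequent at such promoters in general. A protein-coding gene on the other strand started within 1000 bp upstream of 21 of 33 proteasome genes (63.6%), against 17.7% of all genes. Among all genes with such a divergent neighbour, 15.1% had an IDR summit and 46.0% a pooled summit. Among the 21 proteasome genes with one, 4 had an IDR summit and 13 a pooled summit (61.9%). The IDR count is near the 15.1% of genes with the same layout. The part of the layout in the higher share of proteasome genes was not tested.

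A summit at a proteasome gene often lay in the windows of more than 1 gene. Of the 6 IDR summits 4 lay in the window of another protein-coding gene, namely hsp-110, F57B9.1, C23G10.7 and K08D12.3, and of the 21 strongest pooled summits 15 did. Such sharing was not counted over all genes, so whether it is more frequent here is unknown. The proteasome gene had the nearest 5′ end in 5 of 6 and 16 of 21 cases, and the share over all genes was 83.0%. Nearer neighbours were F57B9.1 (rpn-6.1), F49C12.9 (rpn-7), use-1 (pas-3), ribo-1 (rpn-1) and nfyc-1 (rpt-4). With 1 gene per summit, 5 of 33 proteasome genes kept an IDR summit (15.2%, against 7.29% of all genes under the same assignment) and 16 a pooled one (48.5%, against 35.2%). Messenger RNAs of many worm genes are trans-spliced, so an annotated 5′ end may lie downstream of the site where transcription starts.

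All 33 genes are autosomal, with 10 on chromosome I, 7 on II, 8 on III, 3 on IV and 5 on V. Among autosomal protein-coding genes 8.54% had an IDR summit and 38.0% a pooled one. These shares differ little from those of all genes.

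No pooled summit lay in the windows of 12 of 33 proteasome genes. Over all genes absence was more frequent, at 12087 of 19973. Of the 12 proteasome genes, 9 had no summit in any of the 4 lists (27.3% of the 33), a share not counted over all genes. These 9 were the alpha ring genes pas-2, pas-6 and pas-7, the beta ring genes pbs-2 and pbs-5, which encode the counterparts of the trypsin-like and chymotrypsin-like subunits, the lid genes rpn-12 and rpn-6.2, and the ATPase genes rpt-3 and rpt-5. Of the beta genes with proteolytic counterparts, pbs-1 thus had a summit and pbs-2 and pbs-5 had none. So few genes cannot be set apart from the 39.5% of all genes with a pooled summit. A pooled region did overlap the window of pbs-5, but the nearest summit was 510 bp from its 5′ end. The nearest pooled summit was 494 bp from the 5′ end of pas-7, outside the window on its downstream side, and 9763 bp from that of rpt-5. The remaining 3 genes had weak summits in a replicate list, rpn-13 in both and the others in 1. The ubiquitin receptor gene rpn-13 had a signal of 16.7 in replicate 1 and 14.4 in replicate 2, pas-1 had 17.3 in replicate 1 and rpn-5 had 17.0 in replicate 2. The paralogues rpn-6.1 and rpn-6.2 differed, with an IDR peak at the former and no summit at the latter. The rpn-6.1 summit was nearer to F57B9.1 (37 bp against 302 bp), and with 1 gene per summit rpn-6.1 was not counted.

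Genes that act with the proteasome were described by a list of 33 symbols, of which 32 matched. IDR summits were present at 12 of 32 (37.5%, against 9.0% of all genes) and pooled summits at 20 (62.5%, against 39.5%). The list was chosen with earlier results of these data known, so these shares only describe it, and they were not tested. The strongest was at cdc-48.1, which encodes an ATPase that extracts ubiquitinated proteins, with a signal of 827 in the pooled list, 492 in replicate 1 and 343 in replicate 2, and ranks of 104, 96 and 97. Its paralogue cdc-48.2 had no summit. Genes for CDC-48 cofactors were mixed. Weaker IDR peaks lay at ubxn-3 with 166, ubxn-2 with 122 and ufd-3 with 114 in the pooled list, ufd-2 had a summit of 76.6 in the pooled list only, and ufd-1, npl-4.1, npl-4.2, ubxn-1 and ubxn-4 had no summit in either list. The ufd-3 region ranked 1920 in replicate 1 and 9491 in replicate 2.

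The gene for the transcription factor SKN-1 had an IDR peak of 227 in the pooled list, 109 in replicate 1 and 115 in replicate 2, 588 bp upstream of a 5′ end. The gene of its negative regulator, wdr-23, had a peak of 299, 192 and 109.7. Neither png-1 nor ddi-1, which act in the processing of SKN-1, had a summit. At the start of the ubiquitin pathway, the activating enzyme gene uba-1 had a signal of 161, the conjugating enzyme gene let-70 had 412 and the ubiquitin gene ubq-2 had 96.0 in the pooled list. The let-70 summit was nearer to klc-1 and that of ubq-2 nearer to frg-1. The polyubiquitin gene ubq-1, with 93.7, was just outside the IDR list. The shuttle gene ubql-1 had 302, while the shuttle gene rad-23, which shares a promoter of 395 bp with rpn-12, had none.

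Genes of proteins that associate with the proteasome complete the list. The deubiquitinase gene usp-14 had a summit with a pooled signal of 170.5, nearer to vnut-1, and aip-1, an arsenite-inducible gene, had 124, only 41 bp upstream. The deubiquitinase gene ubh-4 (57.1) and psmd-9 (26.1) had weaker summits in the pooled list only, and dss-1 and psme-3 had none. Among other large complexes, IDR summits were present at 39 of 78 ribosomal protein genes, 3 of 8 chaperonin genes and 4 of 20 vacuolar ATPase genes. Each share lay above the 9.0% of all genes. Pooled summits were present at 71 of 78 (91.0%), 6 of 8 and 15 of 20 of these genes, against 39.5% of all genes. These pooled shares were all above the 63.6% of proteasome genes, so a raised pooled share was not particular to the proteasome. The differences from the proteasome were not tested. Whether any of these counts is particular to NHR-48 was not tested.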

How the data were processed

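The authors deposited narrowPeak lists of NHR-48-GFP ChIP-seq regions on ce11 and ce10. Only the ce11 lists were used, since the gene models are of that build. Per the deposited file listings, the replicate and pooled lists hold peaks and background called against 1 control file, and the IDR list was derived from them. For the aligner, the peak caller and the IDR threshold, names and settings are not given in the sources used here. Each region carries a deposited signal, the authors' value on an unstated scale. It was used within 1 list. Depth cannot be derived from the lists. The 2 replicates are labelled as separate biological samples.

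A summit was the region start plus the deposited offset. It was assigned to every 5′ end of a protein-coding transcript (Ensembl release 115) with the summit from 1000 bp upstream to 200 bp downstream. No region ran past a chromosome end of the RefSeq genome. For each strongest pooled region, the overlapping replicate region (at least 1 bp) with the nearest summit gave the replicate signal. Shares have exact 95% Clopper-Pearson intervals. No p-value was computed, since there is 1 group and set tests were not run. The members and lists were chosen with earlier results of these data known. Named were all members with an IDR summit, the 10 strongest pooled-only members, related genes with an IDR summit, and others where a count needed them. Related genes named with only a pooled summit or with none were chosen after their values were seen. The assignment was tested on simulated data: for 300 random summits it differed from a direct search in 0 cases, and it recovered 200 of 200 planted genes. Alternatives were other windows, 5′ ends, assignments, thresholds and single replicates. The scripts used scipy 1.17.1 for intervals, pandas 2.3.3 and numpy 2.4.6 for tables, and matplotlib 3.10.9 under Python 3.11.15.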

Additional observations from a re-analysis of the deposited data

How the results depend on the processing

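IDR counts rest on few genes, 3 of them near the list's limit. Restricting to the 50% of IDR peaks with highest signal, or to peaks overlapped by top-ranked regions of both replicates, left 3 of 33 proteasome genes (rpn-3, rpn-11 and pas-5), 2 regulatory and 1 core. In the former restriction that is 9.09%, against 4.61% of all genes. The window from 500 bp upstream left 1 core gene, pbs-1 (7.14%, against 6.67% of all genes). The top-ranked regions of 1 replicate were also used in place of the IDR list. The counts then ran from 4 to 5 in all, from 1 to 2 for the core and were 3 for the regulatory particle. The shares in all were 12.1% in replicate 1 and 15.2% in replicate 2, against 8.70% and 9.05% of all genes. With the whole list of 1 replicate in place of the pooled list, the counts ran from 20 to 21, 7 to 8 and 12 to 14. Shortening the pooled list to 5000 regions, added after the ranks were seen, gave 9 in all, 3 core and 6 regulatory genes, and 10000 regions gave 5 core genes. The median signal was 33.4 with the values of replicate 2, whose scale is its own. The other alternatives moved these counts by at most 1.5 times; the widest window gave 8 genes in the IDR list (24.2%, against 12.3% of all genes), adding rpn-8 and rpt-2, and 26 in the pooled list (78.8%, against 50.5%). With 1 gene per summit the pooled counts were 7 core and 9 regulatory genes, which turns the order of their shares. The ce10 lists were not analysed. No paired analysis was possible because there is 1 group. Unknown depth limits what absence of a region means.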
